A study of Mus musculus with 6 samples.

Results

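The heat shock proteins and chaperones described here are 87 of the 14051 genes listed in a bulk RNA-Seq table of CD8+ T cells of donor origin, sorted from BM. The rule for members uses gene symbols and no measured value. It took the HSP70, HSP110, HSP90, small heat shock protein and mitochondrial chaperonin symbols, the J-domain families DNAJA, DNAJB and DNAJC, the CCT subunits and the BAG family, and added Tcp1, Hsf1, Hsf2, Stip1 and Ahsa1. The perlecan gene Hspg2 and Hspbap1, whose symbols look alike, were left out. Of the 87 genes, 80 were tested because 3 or more libraries gave them a normalized count of 10 or above. The other 7 (Cct8l1, Dnajb8, Dnajc6, Hspa1l, Hspb1, Hspb7 and Hspb8) did not reach this level and are described by their values only.

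Chaperones bind proteins that are unfolded, newly made or damaged and help them reach or keep their shape. HSP70 proteins bind and release short stretches of their clients in cycles driven by ATP, in which J-domain proteins bring the client and nucleotide exchange factors such as the BAG proteins let it go. HSP90 acts later, on clients that are nearly folded, and the unliganded glucocorticoid receptor is among the best studied of these. The CCT ring folds actin and tubulin in the cytosol, the chaperonin Hspd1 with its lid Hspe1 works in mitochondria, and a parallel set led by Hspa5 and Hsp90b1 works in the endoplasmic reticulum (ER). Heat shock factor 1 switches on many of the cytosolic genes under stress, and the unfolded protein response switches on the ER set.

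Recipients were B6D2F1 mice that had been irradiated and transplanted, and all groups received CD3+ T cells purified from donors of the B6.CD45.1 strain. GC-treated recipients were given dexamethasone, a synthetic glucocorticoid, at 5 mg/kg/day from day -1 to day 5, and vehicle-treated recipients were given methyl β-cyclodextrin on the same days. An antibody to CD45 was injected i.v. minutes before the BM was taken on day 5, so the labelled donor CD8+ T cells that were sorted were those still inside vessels. Each condition has 3 libraries, the BM was pooled from 2 to 3 mice per biological group, and it is not stated if every library came from a separate pool, so p-values measure the spread between these libraries, which may be partly technical. No source used here gives the age of the mice. The comparison asks how the RNA of these cells differed with GC treatment.

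Reads on listed genes numbered 67887570 to 76888118 in the GC-treated libraries and 60949593 to 64801008 in the vehicle-treated libraries. The values are normalized counts, which are read counts divided by 1 size factor per library. The CD8 and T cell markers were high in every library, with Cd8a at 68730 to 93850 in the GC-treated and 63285 to 84617 in the vehicle-treated libraries. GC-treated 1 stood apart from GC-treated 2 and 3. Without it 2395 of 11649 genes had an unadjusted p under 0.05 in limma, against 838 with all libraries and 274 to 763 with any 1 of the other libraries left out. Granulocyte transcripts varied between libraries of the same group: the 11 listed neutrophil markers in the table, each above 0 in at least 1 library, summed to 1842, 12765 and 9001 in the GC-treated libraries and to 791, 470 and 4314 in the vehicle-treated libraries.

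Chaperone genes were among the most abundant transcripts of these T cells. The 87 genes took 2.89%, 2.83% and 2.69% of the reads in the GC-treated libraries and 2.75%, 2.49% and 2.69% in the vehicle-treated libraries, so the shares of both groups overlapped. On a scale of normalized count per kb of annotated exon, Hspa8, the constitutive cytosolic HSP70, had the highest mean of the set at 50238 per kb, followed by the constitutive HSP90 gene Hsp90ab1 at 37281 per kb and the ER HSP70 Hspa5 at 28190 per kb. Hspa8 ranked 3 among all 14051 listed genes by mean normalized count. At the other end, Dnajb8 was above 0 in GC-treated 1 alone, Cct8l1 in vehicle-treated 1 alone and Hspb8 in vehicle-treated 2 alone, each at no more than 11.3. Hspb1, the classical inducible small heat shock protein, was listed at 6.06, 0 and 0 in the GC-treated libraries and at 2.18, 19.5 and 4.17 in the vehicle-treated libraries. Dnajc6, the clathrin-uncoating auxilin of neurons, was listed at 0, 5.95 and 16.5 in the GC-treated libraries and at 9.82, 11.9 and 8.35 in the vehicle-treated libraries. Hspa1l and Hspb7 stayed at or under 7.63 in every library.

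No chaperone gene passed the test between the groups. With limma on log2(normalized count + 1) and Benjamini-Hochberg adjustment over all genes, 0 of 80 members were called higher and 0 lower at an adjusted p under 0.05, and the same was true of all 11649 genes (0% in each direction). The lowest adjusted p of a member was 0.62 in limma, 0.655 in edgeR and 0.609 in DESeq2, the other tools having been run on the recovered reads. DESeq2 called 2 genes lower of 14034 (0.0143%) and 0 higher (0%), none of them a chaperone, and edgeR called 0 (0%). At an unadjusted p under 0.05 in limma, 8 members (10%) stood out, 6 higher and 2 lower, beside 7.19% of all genes, 2.12% higher and 5.07% lower. The 6 include Dnajc28, which was tested only because of its values in the GC-treated libraries. In edgeR 5 members were higher and 1 lower at that level, beside 2.28% and 3.79% of all genes, and in DESeq2 5 were higher and 2 lower, beside 2.41% and 4.63%. The median log2 fold change was 0.06 over the 80 members and -0.01 over all genes, and 51 of 80 members had a positive value, against 48.5% of all genes. In bulk libraries of this kind, fewer cells of a type and less RNA per cell cannot be told apart.

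The intervals show how large a difference these libraries could still hide. For 57 of 80 members (71.2%) the 95% interval of the fold change lay within 1.5-fold either way, against 59.1% of all genes, and for 68 (85%) it lay within 2-fold, against 77.1%. The groups did not overlap for 10 members, 9 with every GC-treated library above and 1 with every GC-treated library below, beside 6.4% of all genes in each direction. The 9 were Hspa5, Dnajb11, Bag1, Hspbp1, Dnajc8, Dnajc17, Dnajc28, Cct7 and Hspa14, and the 1 was Dnajb5. Of these, Dnajc28 passed the filter on low values only through the GC-treated libraries. The share over both directions was 12.5% of members and 12.8% of all genes.

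**Figure D1:**
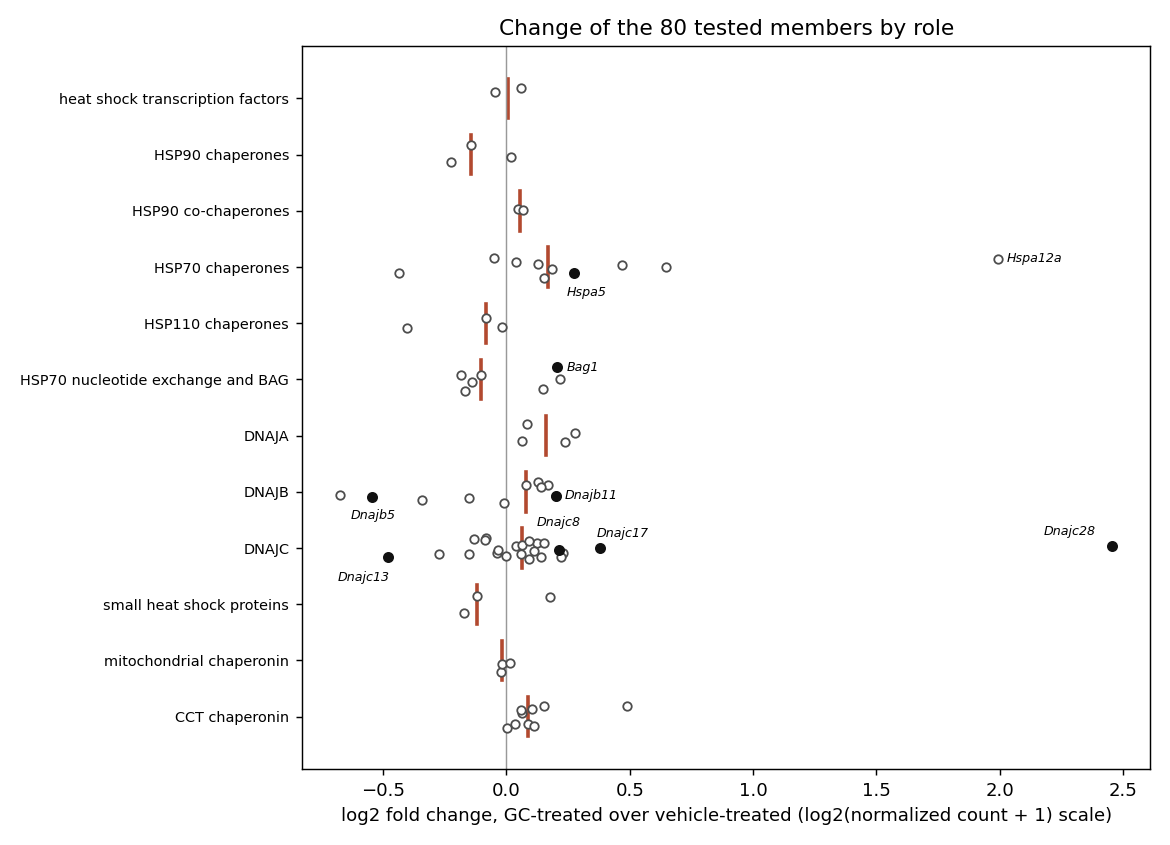
The horizontal axis gives the log2 fold change of GC-treated over vehicle-treated libraries on the log2(normalized count + 1) scale, and each point is 1 of the 80 tested members, in rows by role, with a red bar at the median of the role. Filled points are the 8 members at an unadjusted p under 0.05 in limma, none of which passed the adjusted test, and most points lie close to 0.

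In the ER set, Hspa5 had the highest counts, and its groups did not overlap. Hspa5, also known as BiP, is the HSP70 of the ER lumen and the sensor partner of the unfolded protein response. It had 169674, 185706 and 158331 normalized counts in the GC-treated libraries and 152521, 124476 and 148712 in the vehicle-treated libraries. Every GC-treated library lay above every vehicle-treated library, the highest vehicle-treated value being close to the lowest GC-treated one. The log2 fold change was 0.27 with a SE of 0.10 (unadjusted p = 0.0256, adjusted p = 0.62 in limma). Hspa5 lies on GRCm39 at chr2:34661982-34668880 on the plus strand and overlaps Rabepk. Overlap here means that the annotated spans of the genes, from start to end, share bases. By this measure 35 of the 86 members found in the annotation overlap another listed coding gene. Strand is not marked by the library kit, so it cannot assign a read from shared bases to either gene. Whether the overlapping genes share exon bases, and whether the overlap changed any count, was not tested.

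Dnajb11, the ER J-domain protein that hands clients to Hspa5, followed the same order. It had 25439, 28284 and 25341 in the GC-treated libraries and 23417, 20990 and 24415 in the vehicle-treated libraries, without overlap. The log2 fold change was 0.20 with a SE of 0.09 (unadjusted p = 0.0496, adjusted p = 0.62 in limma). Both genes were highest in GC-treated 2 and lowest in vehicle-treated 2. The same 2 libraries held the highest and lowest values of Dnajb9 and Dnajc3, the other ER J-domain proteins tied to the unfolded protein response. They also held those of Hspa8, Dnaja1 and Dnajb1, which are not ER members, and vehicle-treated 2 was lowest for 18.1% of all genes. Dnajb9 had 582, 726 and 660 in the GC-treated libraries and 609, 477 and 632 in the vehicle-treated libraries, and the groups overlapped (log2 fold change 0.20, SE 0.17). Dnajc3, which also restrains the kinase PERK, had 22314, 24928 and 20131 in the GC-treated libraries and 22969, 18146 and 21216 in the vehicle-treated libraries (log2 fold change 0.11, SE 0.11).

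Hsp90b1, the HSP90 of the ER, had a negative value. It had 69643, 59129 and 54473 in the GC-treated libraries and 67471, 65811 and 67770 in the vehicle-treated libraries. The vehicle-treated values lay close together, while GC-treated 1 was above all of them and GC-treated 2 and 3 were below. The log2 fold change was -0.14 with a SE of 0.10, and -0.24 without GC-treated 1 (adjusted p = 0.149 in limma). Its range with each library left out was -0.24 to -0.0625. Of the 8 ER members tested, 5 had a positive and 3 a negative log2 fold change, 2 were higher at an unadjusted p under 0.05, against 2.12% of all genes, and the median was 0.06, against -0.01 over all genes. The reductase Dnajc10 at 0.00, Dnajc1 at -0.04 and Hspa13, an HSP70 of microsomes, at -0.05 on the log2 scale made up the rest.

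A wider list of 20 ER folding genes outside the symbol rule gave the background for these members. Of these, 16 had a positive log2 fold change and 4 a negative one, 3 were higher and 1 lower at an unadjusted p under 0.05, against 2.12% and 5.07% of all genes, and the median was 0.15, but 0 passed the adjusted test. Without GC-treated 1, 7 were higher and 2 lower at that level, against 8.34% and 12.2% of all genes, and 1 passed the adjusted test as lower. The genes higher at that level were Sdf2l1 at 0.24, a partner of Dnajb11, Manf at 0.27, a cofactor of Hspa5, and Selenos at 0.28, a component of ER-associated degradation, with the values on the log2 scale. Sdf2l1 had 17738, 18941 and 20482 in the GC-treated libraries and 16428, 15814 and 16164 in the vehicle-treated libraries, and the groups did not overlap. Calnexin (Canx), the membrane lectin that holds glycoproteins during folding, had 62527, 45896 and 45313 in the GC-treated libraries and 64560, 68876 and 63806 in the vehicle-treated libraries. It was lower in every GC-treated library (log2 fold change -0.38, SE 0.12, adjusted p = 0.62 in limma). Its soluble relative calreticulin (Calr) was on the opposite side, with 80978, 80285 and 78777 in the GC-treated libraries and 75364, 66925 and 75090 in the vehicle-treated libraries (log2 fold change 0.15, SE 0.08). Hyou1, an ER exchange factor for Hspa5, had 8661, 4616 and 5206 in the GC-treated libraries and 8792, 7768 and 9124 in the vehicle-treated libraries (log2 fold change -0.53, SE 0.21, adjusted p = 0.62 in limma). It was the 1 gene of 8 other exchange factors and mitochondrial chaperones (12.5%) at an unadjusted p under 0.05, against 5.07% of all genes lower at that level. Of these 8 genes, 5 had a positive and 3 a negative value.

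Promoter letters were read to show what some of the ER members share beside their counts. In the 250 bases before each canonical start, the ER stress element, CCAAT and CCACG with 9 free bases between them on either strand, was found in 3 of 86 members (3.49%) and in 14 of 13432 listed coding genes (0.104%). The 3 members were Hspa5, Hsp90b1 and Dnajc3, which did not share a sign in the counts above. The other ER members, Dnajb11, Dnajb9, Dnajc1, Dnajc10 and Hspa13, had no match in this window. The element contains the CCAAT box, which alone was found in 40.7% of members and 35.2% of all listed coding genes. The sites are shown because they are the element these 3 genes have in common, on GRCm39, 5′ to 3′ on the strand of the gene, with the element in capitals. Hsp90b1 carries it in both orientations.
Hspa5, plus strand, chr2:34662032-34662060: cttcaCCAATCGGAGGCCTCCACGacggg
Hsp90b1 site 1, minus strand, chr10:86541497-86541525: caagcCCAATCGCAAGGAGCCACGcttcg
Hsp90b1 site 2, minus strand, chr10:86541392-86541420: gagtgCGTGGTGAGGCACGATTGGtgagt
Dnajc3, plus strand, chr14:119175214-119175282: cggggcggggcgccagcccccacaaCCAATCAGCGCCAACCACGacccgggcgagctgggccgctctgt

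Among the HSP70 genes with a mean of at least 1000 normalized counts, the stress-inducible pair Hspa1a and Hspa1b spread most between libraries. Hspa1a had 965, 4045 and 3350 normalized counts in the GC-treated libraries and 1512, 963 and 2329 in the vehicle-treated libraries. Hspa1b had 1870, 7994 and 5692 in the GC-treated libraries and 3296, 2093 and 4647 in the vehicle-treated libraries. For both genes GC-treated 2, GC-treated 3 and vehicle-treated 3 held the highest values, and GC-treated 1 was as low as vehicle-treated 2. The log2 fold change was 0.65 with a SE of 0.51 for Hspa1a and 0.47 with a SE of 0.48 for Hspa1b, and the groups overlapped. Without GC-treated 1 these values became 1.29 (adjusted p = 0.0988) and 1.09 (adjusted p = 0.124) in limma, still short of the threshold. With each library left out in turn, they ran from 0.259 to 1.29 for Hspa1a and from 0.0386 to 1.09 for Hspa1b.

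The neutrophil marker sums given above were highest in the same 3 libraries as Hspa1a and Hspa1b, and their part in the result was not tested. Elane and Mpo were the listed markers without these 3 libraries on top. Elane was lowest in GC-treated 2, at 25.8, and Mpo was lower in GC-treated 3, at 221, than in GC-treated 1, at 326. This order of libraries, GC-treated 2 and 3 with vehicle-treated 3 above the others, was found for 10 of 80 members, and for 11.5% of all genes. The other 8 were Bag5, Dnajb2, Dnajb6, Dnajb9, Dnajc7, Dnajc16, Dnajc21 and Hspb11. A list of 14 immediate early genes, which are known to rise with cell handling as well as with stimulation, was also summed. Their normalized counts, led by Junb, summed to 69641, 72865 and 55479 in the GC-treated libraries and to 64319, 54369 and 49024 in the vehicle-treated libraries. Of these genes, 8 had a positive log2 fold change, and 3 were higher at an unadjusted p under 0.05, against 2.12% of all genes: Jun at 0.59, Jund at 0.46 and Dusp1 at 0.47 on the log2 scale. The part of cell handling in the result was not tested.

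Hspa1a and Hspa1b are near-identical copies whose starts lie 12918 bases apart on the minus strand of chromosome 17. Their coding sequences, of 1923 and 1926 bases, matched at 99.43% of aligned positions, so the split of reads between them is uncertain. Their summed counts were 2835, 12039 and 9042 in the GC-treated libraries and 4808, 3056 and 6975 in the vehicle-treated libraries. The share of the sum given to Hspa1a was 34.0%, 33.6% and 37.1% in the GC-treated libraries and 31.4%, 31.5% and 33.4% in the vehicle-treated libraries. With copies this alike, the share does not tell which copy varied.

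The inducible genes were also read for heat shock units. The element of 3 units, GAANNTTC followed by 2 free bases and GAA on either strand, was found in the 250 bases before the start of 2 of 86 members (2.33%) and of 0.365% of listed coding genes. The 2 members were Hspe1 and Hspd1, which share 1 promoter, since their starts lie 108 bases apart on opposite strands. The looser pair of units, GAANNTTC or TTCNNGAA, which every element of 3 units contains, was found in 13 members (15.1%) and in 10.9% of listed coding genes. A glucocorticoid response element, written as GNACA and TGTNC with 3 free bases between them, was found in 0 members and in 0.238% of listed coding genes. The sites below are shown for all inducible members with a match, on GRCm39, 5′ to 3′ on the strand of the gene, with every pair of units in capitals. The windows of Hspa1a and Hspa1b are the same to the letter, and those of Hspe1 and Hspd1 are the same bases read from both strands.
Hspe1, plus strand, chr1:55127212-55127241: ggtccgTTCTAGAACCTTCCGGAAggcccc
Hspd1, minus strand, chr1:55127212-55127241: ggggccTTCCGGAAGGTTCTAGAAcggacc
Hspa1a, minus strand, chr17:35191204-35191261: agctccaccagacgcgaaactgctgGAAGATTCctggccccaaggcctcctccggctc
Hspa1b, minus strand, chr17:35178286-35178343: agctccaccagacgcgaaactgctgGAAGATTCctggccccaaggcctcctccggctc
Hsph1, minus strand, chr5:149559821-149559840: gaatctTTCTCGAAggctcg
Dnaja1, plus strand, chr4:40722338-40722357: cctctaGAAAATTCtacgag
Hspb1, plus strand, chr5:135916631-135916708: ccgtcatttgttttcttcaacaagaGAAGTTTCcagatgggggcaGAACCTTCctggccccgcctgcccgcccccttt

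The inducible members did not share a sign. The list of these members includes Hspa8, named above as constitutive. Of the 11 tested, 5 had a positive and 6 a negative log2 fold change, 0 had an unadjusted p under 0.05, and the median was -0.02. Hspa1a, Hspa1b, Hspa8, Dnaja1, Dnajb1, Dnajb4 and Bag3 were highest in GC-treated 2, while Hsp90aa1, Hspd1 and Hspe1 were lowest in that library. Dnaja1, an HSP70 partner, had 47202, 63925 and 46829 in the GC-treated libraries and 48997, 36343 and 48560 in the vehicle-treated libraries (log2 fold change 0.24, SE 0.15). Only GC-treated 2 and vehicle-treated 2 lay outside a narrow band for this gene. Dnajb1, the main J-domain partner of the inducible HSP70s, had 13674, 18813 and 14841 in the GC-treated libraries and 15234, 12422 and 15481 in the vehicle-treated libraries (log2 fold change 0.13, SE 0.13). Bag3, which couples HSP70 to selective autophagy, had 440, 736 and 380 in the GC-treated libraries and 577, 521 and 507 in the vehicle-treated libraries, so that the GC-treated libraries lay on both sides of the others. Dnajb4, another J-domain partner of HSP70, was at -0.15 on the log2 scale with a SE of 0.19. Of 6 tested genes of the wider heat shock response, 4 had a positive and 2 a negative value and none had an unadjusted p under 0.05. The polyubiquitin gene Ubb had 362696, 425784 and 457904 in the GC-treated libraries and 369786, 350304 and 354387 in the vehicle-treated libraries (log2 fold change 0.21, SE 0.10), and the heme oxygenase gene Hmox1 was at -0.48 with a SE of 0.26.

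**Figure D2:**
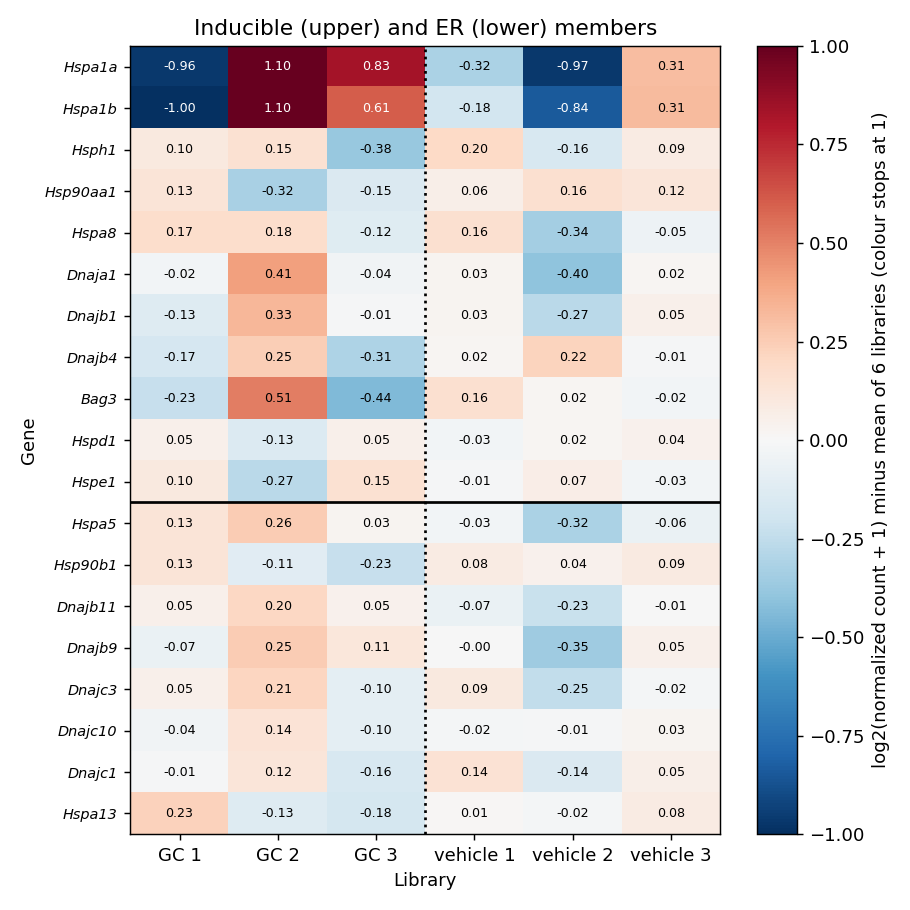
Rows are the 11 tested members of the inducible list, the constitutive Hspa8 among them (upper block), and the 8 ER members (lower block). Columns are the 3 GC-treated and the 3 vehicle-treated libraries. Each cell gives the log2(normalized count + 1) minus the mean over the 6 libraries, with the colour stopping at 1. Hspa1a and Hspa1b range from -1.00 to 1.10, while all other genes shown stay between -0.44 and 0.51.

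Hspa8 itself had 487262, 489010 and 397994 in the GC-treated libraries and 483163, 342558 and 416410 in the vehicle-treated libraries. Its highest values were in GC-treated 1 and 2 and vehicle-treated 1, and the groups overlapped (log2 fold change 0.15, SE 0.14). Hspa14, which works on the ribosome with the J-domain protein Dnajc2, had 10092, 10872 and 10588 in the GC-treated libraries and 9237, 9833 and 9774 in the vehicle-treated libraries. These groups did not overlap, and the difference was small (log2 fold change 0.13, SE 0.08, adjusted p = 0.629 in limma). Hspa9, the mitochondrial HSP70, was at 0.04 with a SE of 0.10. Hspa12a, a divergent HSP70, was near the detection limit with 4.33, 48.6 and 28.5 in the GC-treated libraries and 22.9, 0 and 4.17 in the vehicle-treated libraries, and its fitted log2 fold change of 1.99 (SE 1.36) depends on the pseudocount. Hspa2, best known from the testis, was at 0.18 (SE 0.25), and the divergent Hspa12b, at no more than 30.3 normalized counts in any library, at -0.44 (SE 0.73). Of the 10 HSP70 genes tested, 8 had a positive log2 fold change, and the median was 0.17.

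The 3 HSP110 genes, which are relatives of HSP70 that act as its exchange factors, all had negative values. Hspa4l had 3903, 2731 and 2181 in the GC-treated libraries and 4130, 4386 and 2972 in the vehicle-treated libraries (log2 fold change -0.40, SE 0.22). Hsph1 had 28880, 30038 and 20803 in the GC-treated libraries and 31029, 24173 and 28653 in the vehicle-treated libraries (log2 fold change -0.08, SE 0.15). Hspa4 was at -0.02 with a SE of 0.09.

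The exchange factors of the BAG group were divided. Bag1, which releases clients from HSP70, had 15159, 16326 and 17669 in the GC-treated libraries and 14014, 13942 and 14558 in the vehicle-treated libraries, without overlap. Its log2 fold change was 0.21 with a SE of 0.08 (unadjusted p = 0.036, adjusted p = 0.62 in limma). Hspbp1, an exchange factor of another fold, had 7657, 7784 and 9212 in the GC-treated libraries and 7101, 6649 and 7361 in the vehicle-treated libraries, again without overlap (log2 fold change 0.22, SE 0.10, adjusted p = 0.62 in limma). Bag1 overlaps Chmp5 and Hspbp1 overlaps Ppp6r1. Bag5 was at 0.15, whereas Bag4 was at -0.18, Bag2, an inhibitor of the ubiquitin ligase CHIP, at -0.17, Bag6, which guards membrane proteins before insertion, at -0.14 and Bag3 at -0.10 on the log2 scale. Both signs were thus present, with 3 positive and 4 negative values and a median of -0.10.

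Neither cytosolic HSP90 gene passed the adjusted test, and a difference between the inducible and the constitutive gene was not tested. Hsp90aa1, the inducible form, had 74316, 54410 and 61404 in the GC-treated libraries and 70693, 76104 and 73792 in the vehicle-treated libraries. GC-treated 2 and 3 lay below all vehicle-treated libraries and GC-treated 1 lay among them. The log2 fold change was -0.23 with a SE of 0.11 (unadjusted p = 0.0757, adjusted p = 0.62 in limma), and -0.35 without GC-treated 1 (adjusted p = 0.0993). Its range with each library left out was -0.35 to -0.122. Hsp90ab1, the constitutive form, had 210150, 200736 and 197374 in the GC-treated libraries and 198101, 194098 and 207665 in the vehicle-treated libraries. Its groups overlapped throughout, and the 95% interval of its log2 fold change ran from -0.15 to 0.19 around 0.02. Of the co-chaperones, Stip1, which bridges HSP70 and HSP90, had 43534, 43011 and 43369 in the GC-treated libraries and 41809, 39254 and 43110 in the vehicle-treated libraries (log2 fold change 0.07, SE 0.07). Ahsa1, which stimulates the ATPase of HSP90, was at 0.05 with a SE of 0.08.

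**Figure D3:**
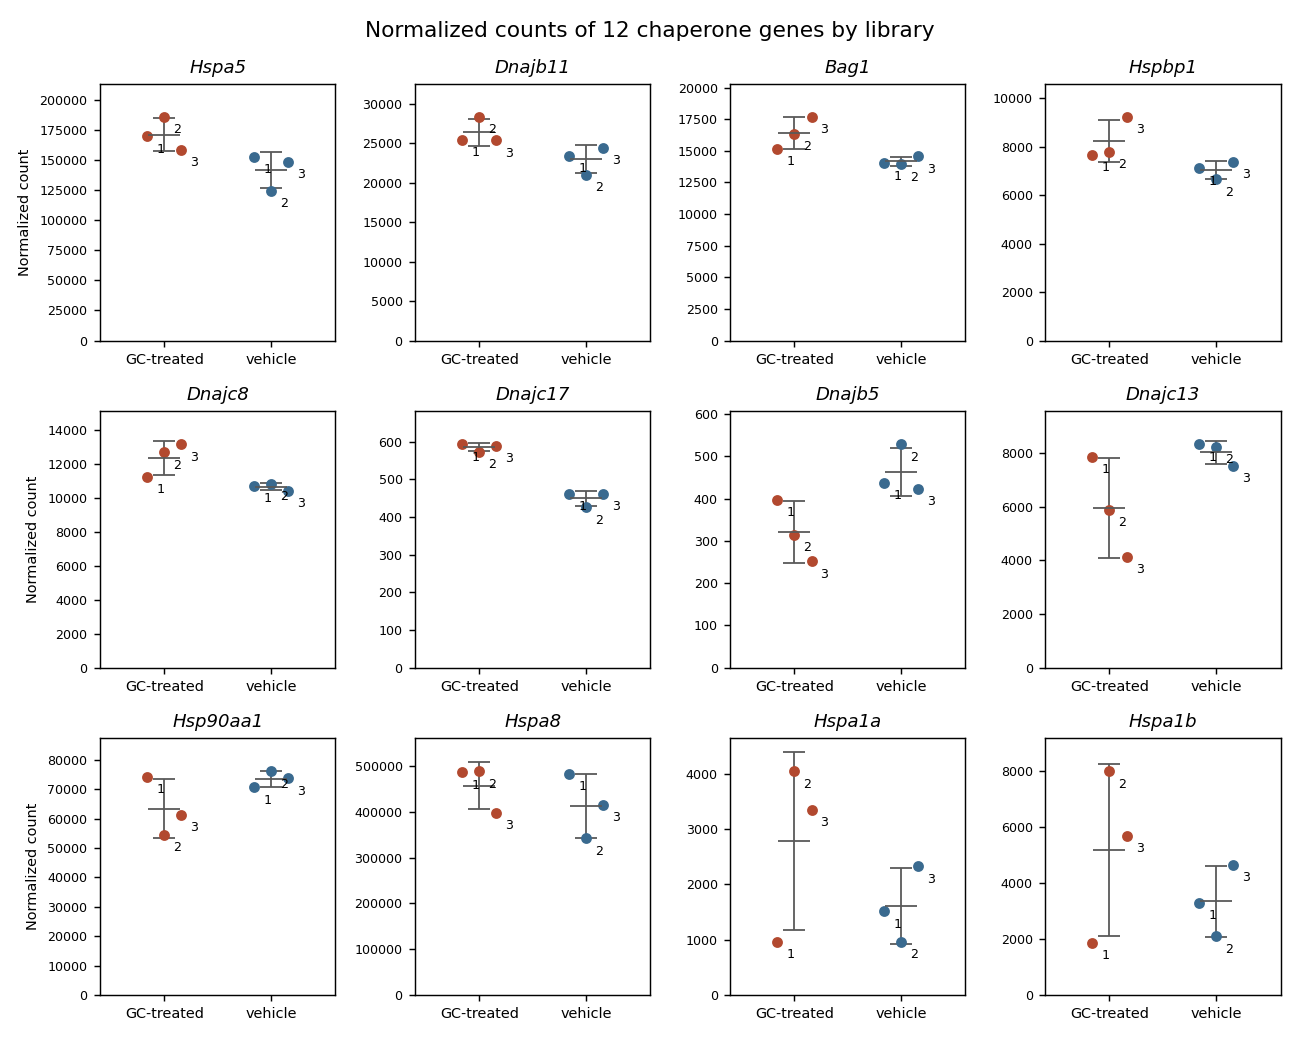
Each panel shows the normalized count of 1 of 12 chaperone genes on an axis that starts at 0, with GC-treated libraries on the left, vehicle-treated libraries on the right, the replicate number beside each point, and bars for the mean and SD of 3 libraries. Hspa5, Dnajb11, Bag1, Hspbp1, Dnajc8, Dnajc17 and Dnajb5 do not overlap between the groups, and Hspa1a and Hspa1b spread most within them.

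The 16 other partners of HSP90 included the receptor itself and its immunophilins. Of these, 10 had a positive and 6 a negative log2 fold change. At an unadjusted p under 0.05 in limma 1 of the 16 (6.25%), Fkbp5, was lower, against 5.07% of all genes. Fkbp5, an immunophilin that holds the glucocorticoid receptor in a low-affinity state, had 21148, 16401 and 14780 in the GC-treated libraries and 24889, 32705 and 21271 in the vehicle-treated libraries. Every GC-treated library was below every vehicle-treated library (log2 fold change -0.59, SE 0.17, adjusted p = 0.62 in limma). Its counterpart Fkbp4 had 33469, 32737 and 33763 in the GC-treated libraries and 32218, 32196 and 32829 in the vehicle-treated libraries (log2 fold change 0.04, SE 0.07). The receptor gene Nr3c1 had 4726, 4821 and 3274 in the GC-treated libraries and 4568, 5192 and 4630 in the vehicle-treated libraries (log2 fold change -0.19, SE 0.15). Ptges3, the p23 co-chaperone, and Cdc37, which brings kinases to HSP90, were at 0.09 and 0.10 on the log2 scale.

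Neither heat shock factor differed beyond its spread. Hsf1, the master factor of the heat shock response, had 6062, 6875 and 5063 in the GC-treated libraries and 5762, 5706 and 5660 in the vehicle-treated libraries. The vehicle-treated values were tight and lay inside the GC-treated range (log2 fold change 0.06, SE 0.12). Hsf2 was low, with 173, 127 and 61.6 in the GC-treated libraries and 92.7, 209 and 77.2 in the vehicle-treated libraries (log2 fold change -0.05, SE 0.49).

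The 8 subunits of the CCT ring, Tcp1, Cct2, Cct3, Cct4, Cct5, Cct6a, Cct7 and Cct8, varied together. All 8 were highest in GC-treated 3, which held the highest value of 28.4% of all genes. All 8 also had GC-treated 3 above GC-treated 1 above GC-treated 2, an order found for 16% of all genes. These subunits form 1 complex and their counts share libraries, so they are not independent of each other. Tcp1 had 35490, 32040 and 37496 in the GC-treated libraries and 31778, 31889 and 33275 in the vehicle-treated libraries. Cct5 had 57653, 56257 and 65785 in the GC-treated libraries and 52174, 52369 and 56792 in the vehicle-treated libraries. Cct7 had 61621, 61247 and 67695 in the GC-treated libraries and 58605, 58035 and 60435 in the vehicle-treated libraries, and was the one ring subunit whose groups did not overlap.

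The size of the CCT difference was within the spread. The log2 fold changes of the 8 subunits ran from 0.00 for Cct2 to 0.15 for Cct5, with a median of 0.08, SEs of 0.08 to 0.09 and adjusted p-values of 0.625 to 0.997 in limma. All 8 were positive, but Cct2 turned to -0.00049 with TMM scaling. The mean level per kb of annotated exon was lowest for Cct4 at 3845 and highest for Cct8 at 12309, a 3.2-fold range among subunits that enter the ring in equal numbers, and annotated exons include stretches that a T cell may not use. Cct6b, a testis form of Cct6a, was near the detection limit with 41.6, 13.9 and 41.4 in the GC-treated libraries and 15.3, 29.2 and 18.8 in the vehicle-treated libraries.

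**Figure D4:**
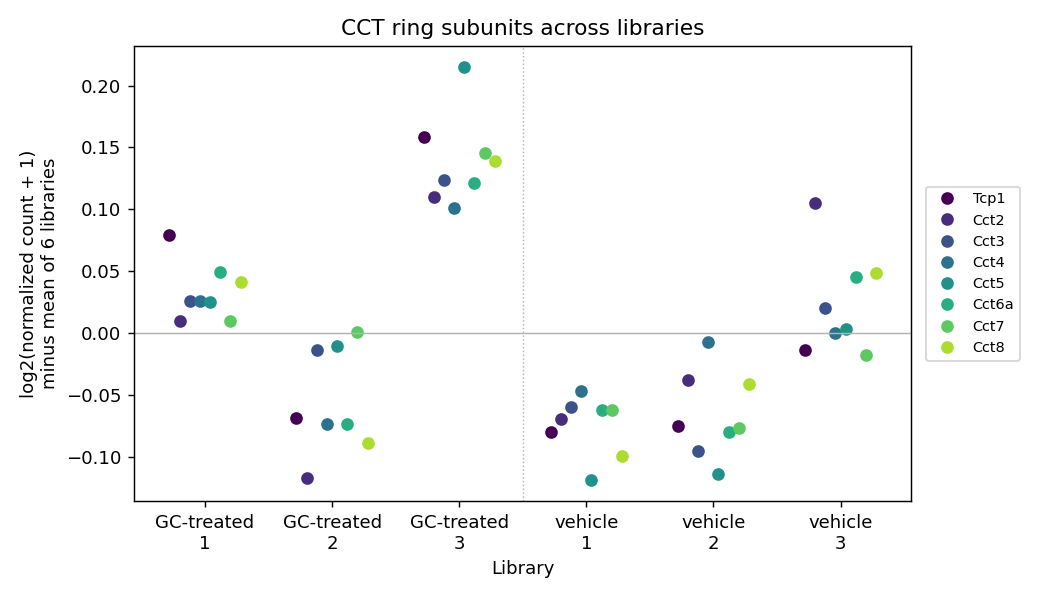
The vertical axis gives the log2(normalized count + 1) of each CCT ring subunit minus its mean over the 6 libraries, and the libraries stand on the horizontal axis, GC-treated on the left and vehicle-treated on the right, with 1 colour per subunit. All 8 subunits reach their highest point in GC-treated 3, and their spread between libraries exceeds the difference between the groups.

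Prefoldin, which passes unfolded actin and tubulin to CCT, was followed together with Pdcl3 as a list of 7 genes outside the symbol rule. All 7 had a positive log2 fold change, and the median was 0.23, against -0.01 over all genes, but 0 passed the adjusted test. The groups did not overlap for 4 of them, Pfdn1, Pfdn2, Pfdn6 and Pdcl3, against 12.8% of all genes. Each of the 7 was highest in GC-treated 3, which held the highest value of 28.4% of all genes. As the log2 distance from the mean over the 6 libraries, the list median was 0.284 in GC-treated 3. It was 0.0726 in GC-treated 2, -0.0422 in GC-treated 1 and between -0.116 and -0.108 in the vehicle-treated libraries. The 7 genes share libraries, so they are not independent of each other. Pfdn6 had 3034, 3286 and 3971 in the GC-treated libraries and 2851, 2898 and 2843 in the vehicle-treated libraries (log2 fold change 0.25, SE 0.12). Pdcl3, a phosducin-like partner of CCT, had 4353, 4615 and 5095 in the GC-treated libraries and 3943, 3930 and 4115 in the vehicle-treated libraries (log2 fold change 0.23, SE 0.10, unadjusted p = 0.0399, adjusted p = 0.62 in limma).

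The mitochondrial chaperonin showed no difference beyond its spread. Hspd1, the barrel subunit, had 51532, 45284 and 51467 in the GC-treated libraries and 48662, 50422 and 51272 in the vehicle-treated libraries. Hspe1, its lid, had 9223, 7151 and 9556 in the GC-treated libraries and 8538, 9018 and 8451 in the vehicle-treated libraries. Both were lowest in GC-treated 2, and both had a log2 fold change of -0.02, with a SE of 0.08 for Hspd1 and 0.12 for Hspe1. The 95% interval for Hspd1 ran from -0.21 to 0.16. Of the 10 mitochondrial members, 7 had a positive and 3 a negative value, with a median of 0.05. The import motor subunit Dnajc19 was at 0.23 (SE 0.12) and its relative Dnajc15 at 0.14 (SE 0.11) on the log2 scale.

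All 4 DNAJA genes had positive values, between 0.07 for the mitochondrial Dnaja3 and 0.28 for Dnaja4 on the log2 scale, with a median of 0.16 and none at an unadjusted p under 0.05. Of 11 DNAJB genes tested, 6 were positive and 5 negative, with a median of 0.08. Dnajb5, a J-domain protein of the cytosol, was the one member with every GC-treated library below every vehicle-treated library. It had 397, 314 and 252 in the GC-treated libraries and 437, 529 and 423 in the vehicle-treated libraries (log2 fold change -0.55, SE 0.21, unadjusted p = 0.0314, adjusted p = 0.62 in limma). Dnajb14, at a lower level of 40.7, 24.8 and 55.1 in the GC-treated libraries and 66.5, 67.0 and 52.2 in the vehicle-treated libraries, had a larger value with a larger error (log2 fold change -0.67, SE 0.44). Dnajb6, which holds back aggregation, was at 0.08 with a SE of 0.08. Dnajb13 was at 0.17, Dnajb2 at 0.14, Dnajb12 at -0.01 and Dnajb7, at no more than 31.6 normalized counts in any library, at -0.34.

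Of the 23 DNAJC genes tested, 15 were positive and 8 negative, with a median of 0.06. Dnajc17 and Dnajc8, J-domain proteins linked to RNA splicing, did not overlap between the groups. Dnajc17 had 593, 573 and 589 in the GC-treated libraries and 461, 426 and 461 in the vehicle-treated libraries (log2 fold change 0.38, SE 0.15, unadjusted p = 0.0288, adjusted p = 0.62 in limma). It overlaps Zfyve19 and Gm14137. Dnajc8 had 11282, 12708 and 13184 in the GC-treated libraries and 10734, 10855 and 10444 in the vehicle-treated libraries (log2 fold change 0.21, SE 0.09, unadjusted p = 0.0368, adjusted p = 0.62 in limma). Dnajc9, a histone chaperone that works with HSP70 and the DNAJC gene with the highest mean per kb of annotated exon, at 5284, was at 0.09 with a SE of 0.08.

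Dnajc28 had the largest log2 fold change of the members tested, at a low level. It had 58.9, 42.7 and 29.4 in the GC-treated libraries and 7.63, 2.16 and 16.7 in the vehicle-treated libraries, without overlap. The log2 fold change was 2.45 with a SE of 0.79 (unadjusted p = 0.0125, adjusted p = 0.62 in limma), and 1.67 with a pseudocount of 8. Dnajc13, which sorts cargo on endosomes, had 7843, 5886 and 4120 in the GC-treated libraries and 8321, 8223 and 7506 in the vehicle-treated libraries. GC-treated 1 lay within the vehicle-treated range, and the other GC-treated libraries lay below it (log2 fold change -0.48, SE 0.20, unadjusted p = 0.0387, adjusted p = 0.62 in limma). Without GC-treated 1 it was at -0.70 with an adjusted p of 0.0772 in limma, the lowest of any member when 1 library was left out. The range of its log2 fold change with each library left out was -0.70 to -0.237. Dnajc5, the cysteine string protein of vesicles, was at -0.15 with a SE of 0.09. The DNAJC genes not yet given a value, Dnajc2, Dnajc4, Dnajc7, Dnajc11, Dnajc12, Dnajc14, Dnajc16, Dnajc18, Dnajc21, Dnajc24, Dnajc27 and Dnajc30, lay between -0.27 for Dnajc12 and 0.22 for Dnajc21 on the log2 scale, and none had an unadjusted p under 0.05.

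Small heat shock proteins, which hold unfolded clients without ATP, were low in these cells. Hspb6 had 467, 174 and 349 in the GC-treated libraries and 334, 350 and 345 in the vehicle-treated libraries, so the GC-treated libraries lay on both sides of a tight vehicle-treated group. Hspb11, whose product is a subunit of the intraflagellar transport machinery, had 176, 222 and 246 in the GC-treated libraries and 174, 195 and 196 in the vehicle-treated libraries. Hspb9 stayed at or under 16.4 in every library.

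Leaving out GC-treated 1 moved more members past an unadjusted p of 0.05. In limma 8 members were then higher and 6 lower, and 0 passed the adjusted test, while 8.34% of all genes were higher and 12.2% lower at that level, and 2 genes (0.0172%) passed the adjusted test as higher and 43 (0.369%) as lower. Of the genes outside the symbol rule, 4 of the list of prefoldin and Pdcl3 were then higher at that level. The same was true of 3 of the wider heat shock response and 3 of the other exchange factors and mitochondrial chaperones. Of the latter list, 1 gene passed the adjusted test as lower. The 6 lower members were Hsp90aa1, Hsp90b1, Hspa4l, Dnajb5, Dnajc13 and Bag6. Vehicle-treated 2 held the lowest value of 29 of 80 members (36.2%), against 18.1% of all genes, among them Hspa5, Hspa8, Dnaja1, Dnajb1, Dnajb9, Dnajb11 and Dnajc3. This library also had the largest share of reads on mitochondrially encoded genes, at 1.13%, against 0.902%, 0.400% and 0.615% in the GC-treated libraries and 0.910% and 0.757% in vehicle-treated 1 and 3, and its part in these values was not tested. Without vehicle-treated 2 the log2 fold change of Hspa5 was 0.18 and that of Dnajb11 0.14.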

How the data were processed

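RNA of the sorted cells was amplified with SMART v4, libraries were made with Nextera XT, which does not mark strand, and paired-end reads were sequenced. The authors ran STAR against GRCm39 and a Gencode annotation, counted reads per gene with summarizeOverlaps and deposited a normalized signal, the counts divided by 1 size factor per library. Tools named in the submitters' processing notes are DESeq2, STAR and bcl2fastq, with versions not given in the sources used here. Within a tolerance of 0.001, 100% of values came out as whole reads.

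Genes whose normalized count reached 10 or more in 3 or more libraries (11649 of 14051) were tested by limma 3.58.1 on log2(normalized count + 1) with a mean-variance trend and Benjamini-Hochberg adjustment at 0.05. In R 4.3.3, the recovered reads were also tested with edgeR 4.0.16 and with DESeq2 1.42.0, whose estimates were shrunk by ashr 2.2.63 in a further setting. Other scaling, pseudocounts, filters and thresholds, a block on the replicate number and fits without each library in turn were tried too. With 3 against 3 libraries, the smallest p of an exact permutation test is 0.1. Groups were taken from the sample labels.

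The members and gene lists were chosen with earlier results of these data known. One member is counted in the totals and is not reported by itself here. The text otherwise names all HSP90, heat shock factor, mitochondrial chaperonin, CCT and inducible members, all members at an unadjusted p under 0.05, the most abundant member of each other role with at most 4 more by smallest p, and at most 4 genes by smallest p from each pathway list. Other members given with values, and Calr, Fkbp4, Nr3c1, Ptges3 and Cdc37, fall outside this rule and were named with their values in view. Promoters (250 bases before the canonical start) were read from the GRCm39 genome with Gencode M39, in which 86 of the 87 members were found, and motifs were searched on both strands.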

Additional observations from a re-analysis of the deposited data

How the results depend on the processing

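No chaperone gene passed an adjusted p of 0.05 in any setting run, in limma, edgeR or DESeq2. The count of members higher at an unadjusted p under 0.05 was 6, and it became 2 without the mean-variance trend and 2 with the replicate number as a block, while leaving out each library gave 1 to 8. The count of members lower was 2, and it became 1 in edgeR, 1 without the trend and 3 with the block, while leaving out each library gave 0 to 6. The replicate numbers did not pair the libraries: the correlations of same-numbered deviations were 0.06, -0.14 and 0.13. The median log2 fold change of the members was 0.06, and 0.00995 after ashr shrinkage, which draws estimates toward 0, with a range of 0.0406 to 0.0850 when each library was left out. Of 50 members followed over 16 settings, 37 kept their sign, 12 changed it only when 1 library was left out, and Cct2 also turned to -0.00049 with TMM scaling.

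The log2 fold changes that turned when 1 library was left out ran from -0.386 to 0.0912 for Bag3, -0.0531 to 0.0604 for Cct2, -0.00596 to 0.0814 for Cct4, -0.00643 to 0.224 for Dnajb1, -0.0433 to 0.177 for Hsf1, -0.366 to 0.384 for Hsf2, -0.00598 to 0.0477 for Hsp90ab1 and -0.0924 to 0.0567 for Hspa4. They ran from -0.476 to 0.234 for Hspb6, -0.916 to 0.330 for Hspb9, -0.0537 to 0.0396 for Hspd1, -0.0937 to 0.116 for Hspe1 and -0.185 to 0.0832 for Hsph1. Leaving out GC-treated 1 turned Cct2 and Hsp90ab1, leaving out GC-treated 2 turned Dnajb1, Hsf1, Hspa4, Hspb6, Hspb9, Hspd1 and Hspe1, and leaving out GC-treated 3 turned Bag3, Cct2, Cct4, Hsf2 and Hsph1. Leaving out vehicle-treated 1 turned Cct2 and Hspb9, leaving out vehicle-treated 2 turned Cct2, Hsf2, Hsp90ab1, Hspb9 and Hspe1, and leaving out vehicle-treated 3 turned Hspa4. The smallest SE of a member was 0.07, for Stip1, and the largest was 1.36, for Hspa12a, which is near the detection limit. The cause of these dependences was not tested.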
